A study of Mus musculus with 38 samples.

Results

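Transcripts of 8 genes of the renin-angiotensin-aldosterone system were followed in mouse kidney RNA-Seq: renin (Ren1), angiotensinogen (Agt), angiotensin converting enzyme (Ace), the angiotensin II type 1a receptor (Agtr1a), neprilysin (Mme), aminopeptidase A (Enpep), the mineralocorticoid receptor (Nr3c2) and 11β-hydroxysteroid dehydrogenase type 2 (Hsd11b2). The genes were taken by symbol from the 55487 genes of the count table, and all 8 passed the filter on low counts in each of 3 experiments. The study asked how excess fibroblast growth factor 23 (FGF23), a phosphate-regulating hormone from bone, acts on healthy and diseased kidneys. In the anti-GBM experiment, male C57BL/6JRj mice, aged 10 weeks at euthanasia, were immunised with sheep IgG in adjuvant and given nephrotoxic serum (NTS), which binds the glomerular basement membrane, or were healthy controls given PBS. They then received 6 daily intravenous injections of 1 µg recombinant human FGF23 or vehicle, giving 4 healthy vehicle, 3 healthy FGF23, 4 anti-GBM vehicle and 3 anti-GBM FGF23 mice. In the Adriamycin experiment, female BALB/c mice, also aged 10 weeks, had been injected once with Adriamycin, which injures podocytes, or with saline vehicle, and were studied 24 h after a single injection of 1 µg FGF23 or its vehicle, with 4 mice in each of the 4 groups. The third experiment used precision-cut kidney slices from male DBA/2J mice, aged 23 weeks, fed adenine to cause tubulointerstitial nephropathy: 4 slices were cultured with vehicle and 4 with 200 ng/mL FGF23, and there were no disease-free slices. Strain and sex cannot be told apart between the experiments.

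Renin is released by juxtaglomerular cells of the afferent arteriole and cuts angiotensinogen to angiotensin I, which Ace trims to angiotensin II. Angiotensin II acts on its type 1 receptor to constrict vessels and retain sodium, and it drives the adrenal cortex to make aldosterone. Aldosterone in turn activates the mineralocorticoid receptor in the distal nephron and collecting duct, where Hsd11b2 inactivates glucocorticoids that would otherwise occupy the receptor. Mme and Enpep, both abundant on the proximal tubule brush border, cleave angiotensin peptides, and blockers of this system are the mainstay of treatment in proteinuric kidney disease.

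All 8 genes are protein coding and lie, in GRCm38, on chromosome 1 (Ren1, 133350510 to 133360325), chromosome 3 (Mme, 63241537 to 63386030, and Enpep, 129269175 to 129332720), chromosome 8 (Nr3c2, 76899442 to 77245012, Hsd11b2, 105518755 to 105523988, and Agt, 124556534 to 124569706), chromosome 11 (Ace, 105967945 to 105989964) and chromosome 13 (Agtr1a, 30336441 to 30382867). Promoter sequence from RefSeq (GRCm38.p6) was matched for 6 members, and 4 of these 6 (Ren1, Agt, Ace and Enpep) held a TATAAA motif on either strand in a window of 250 bases before to 50 after a start. Counted by window, the motif was in 4 of the 9 windows of members and in 13.6% of all 32851 promoter windows. The 150 bases before the start are shown for the renin and angiotensinogen genes and for Ace, the start of the cascade whose levels are described next, with TATAAA in capitals (in Ace it lies on the other strand and stands as its reverse complement). In Ren1 the first capitals, 10 bases, mark the proximal element known to bind HOX and PBX proteins in renin cells, found in 0.0670% of promoter windows. A match is a description of these letters and does not show a binding site.
Ren1, chr1:133350524-133350673, plus strand: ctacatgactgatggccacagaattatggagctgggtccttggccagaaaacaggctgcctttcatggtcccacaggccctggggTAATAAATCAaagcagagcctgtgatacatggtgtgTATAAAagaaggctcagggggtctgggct
Agt, chr8:124569707-124569856, minus strand: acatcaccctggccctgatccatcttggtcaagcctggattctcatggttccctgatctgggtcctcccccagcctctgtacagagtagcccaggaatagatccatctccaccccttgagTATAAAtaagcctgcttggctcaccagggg
Ace, chr11:105967798-105967947, plus strand: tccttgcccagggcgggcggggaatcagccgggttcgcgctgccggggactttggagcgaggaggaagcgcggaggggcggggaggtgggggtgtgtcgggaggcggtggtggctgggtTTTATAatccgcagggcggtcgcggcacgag
TATAAA began 29 bases before the start in Ren1, 30 in Agt and 31 in Ace. The cyclic AMP response element TGACGTCA, searched on both strands, was in 1.79% of all windows and in 0 of the 9 windows of members.

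Total counts ranged from 13704248 to 23630210 in the anti-GBM experiment, from 15665050 to 27583911 in the Adriamycin experiment and from 11186925 to 16254987 in the slices. Levels are given as CPM, in which the counts of each library are brought to a common total. The scaling was done within each experiment, so that levels set beside each other across experiments were not tested. Proximal tubule markers were abundant in the kidneys of mice, with a summed level of 7380 to 16737 CPM, and far lower in the slices, at 324 to 803 CPM. Aldosterone synthase (Cyp11b2), a marker of the adrenal gland, was at 0 counts in all 38 libraries, which allows up to 3 counts in a library. Other adrenal cortex markers were detected at low levels. Star was at 0.566 to 3.34 CPM, and Mc2r was at 0 counts in 4 libraries and Cyp11a1 in 8. Cyp21a1 was at 0 counts in 25 libraries and Cyp11b1 in 35. 1 FGF23 slice, slice 1, stood apart from the other 7 in collecting duct markers and is described with Hsd11b2.

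Per length of exon, Hsd11b2 was the most abundant member in both experiments on mice and Nr3c2 was among the least abundant. Median levels per kb in the anti-GBM experiment were 95.2 CPM for Hsd11b2, 61.1 for Ace, 47.1 for Ren1, 46.0 for Agt, 35.6 for Enpep, 18.9 for Agtr1a, 14.1 for Mme and 3.04 for Nr3c2. In this order every pair of neighbours overlapped over the 14 mice except Mme and Nr3c2. In the Adriamycin experiment the median levels per kb were 117 CPM for Hsd11b2, 89.8 for Ren1, 57.2 for Ace, 40.7 for Mme, 39.9 for Enpep, 17.4 for Agtr1a, 5.13 for Nr3c2 and 0.810 for Agt. Here the 5 most abundant overlapped with their neighbours, and Agtr1a, Nr3c2 and Agt each stood clear of the one above. The slices had the highest level of Ren1, at a median of 156 CPM per kb, followed by 26.9 for Enpep, and between 1.91 and 10.1 for the other 6. DBA/2J mice carry an additional, near-identical renin gene, Ren2, which is not part of the C57BL/6 reference, so reads of both genes may have been counted as Ren1 there.

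Levels also differed between experiments, among them those of Agt and Mme, and that of Ace between mice and slices. Agt lay between 33.6 and 128 CPM in male C57BL/6 mice, between 0.772 and 2.27 CPM in female BALB/c mice and between 8.55 and 23 CPM in the slices, with no overlap. How many of all genes failed to overlap between experiments was not computed, so such gaps are a description only. Mme was at 83.5 to 251 CPM in C57BL/6 mice and at 413 to 609 CPM in BALB/c mice. Ace was at 141 to 501 CPM and 213 to 425 CPM in these experiments, which overlapped, and at 16.7 to 27.8 CPM in the slices. Ren1 was the most variable member within groups of C57BL/6 mice, with a coefficient of variation of 39.1% to 50%, whereas that of Nr3c2 was 5.83% to 13.7%.

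**Figure D1:**
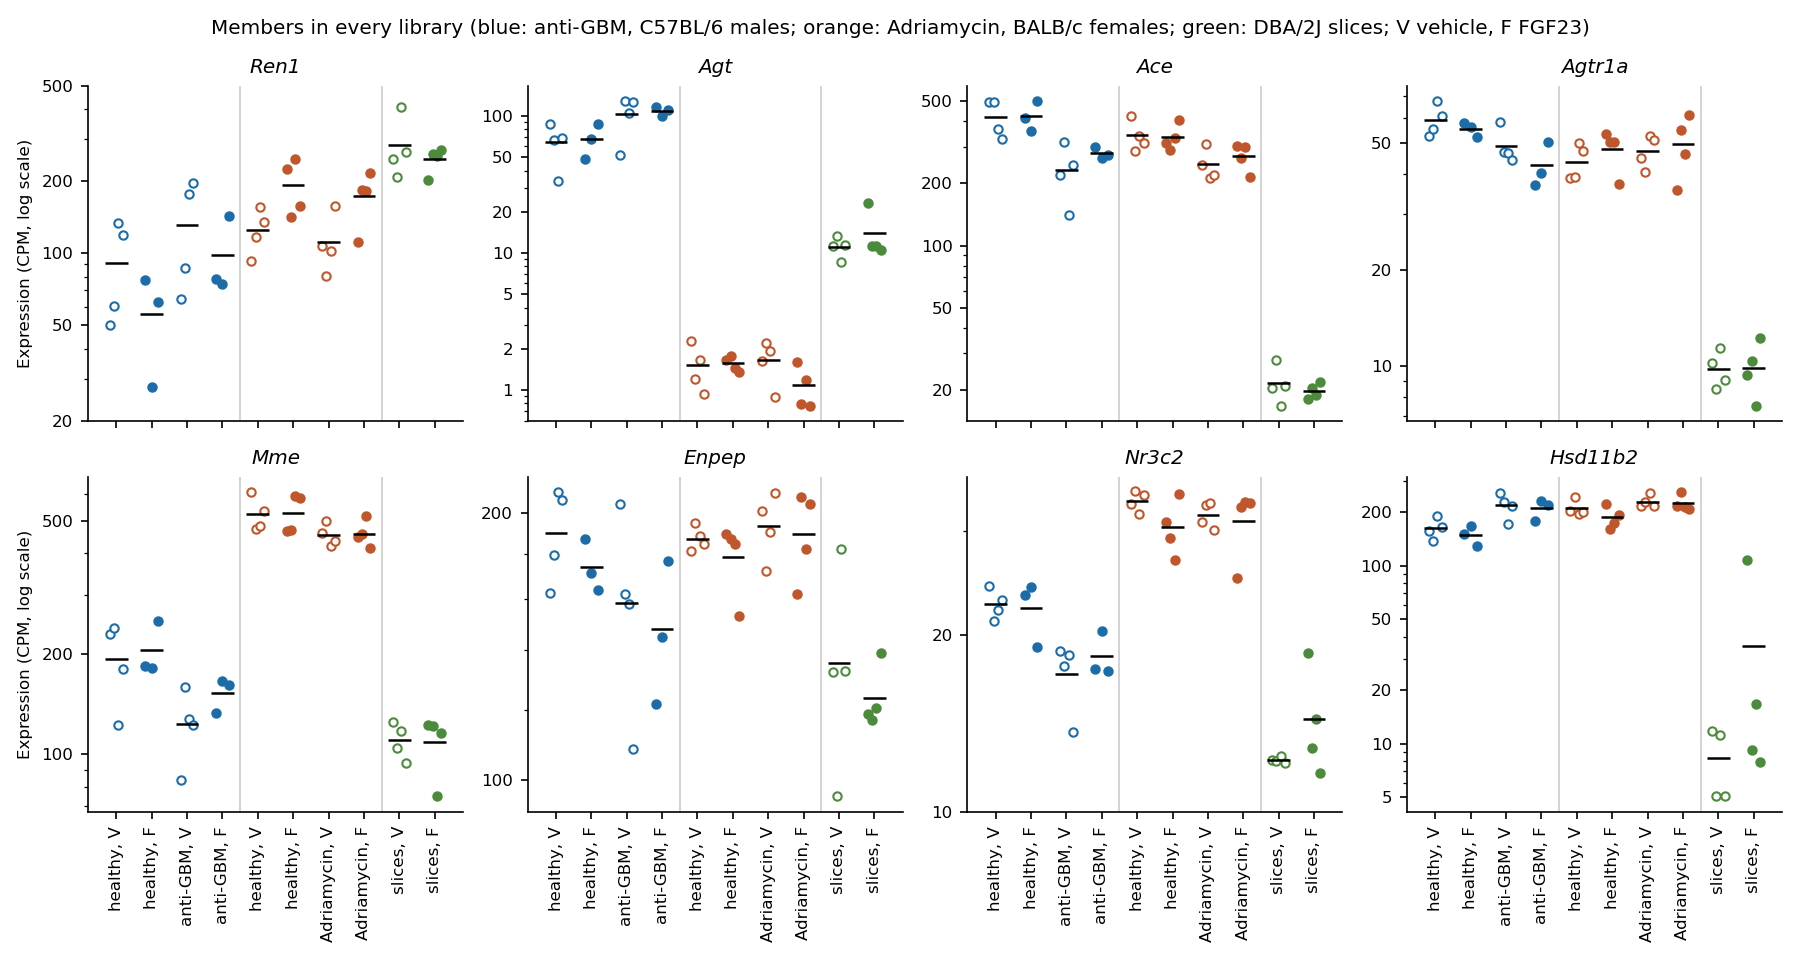
Level of each of the 8 genes in each of the 38 libraries, in CPM on a log10 axis, by group, with 1 point per mouse or slice and a bar at the group mean. The 7 anti-GBM mice sit below the 7 healthy C57BL/6 mice for Ace, and Agt of BALB/c mice, at 0.772 to 2.27 CPM, sits far below that of C57BL/6 mice.

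The first comparison asked how glomerular disease altered these genes. In anti-GBM disease, averaged over vehicle and FGF23, Hsd11b2 and Agt rose and Ace, Mme, Agtr1a and Nr3c2 fell, whereas Ren1 and Enpep did not pass the test (edgeR quasi-likelihood test, Benjamini-Hochberg adjusted p below 0.05). The 6 of 8 members called stand beside 48.3% of the 15859 genes tested, so a call was common in this comparison. The median log2 fold change of the members was -0.29 and that of all genes -0.02. Between all 7 anti-GBM and all 7 healthy mice, only Ace did not overlap, 1 of 8 members beside 20.2% of genes.

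Ace, which makes angiotensin II and is abundant on the brush border and endothelium, had the largest decrease among the members. Its levels were 495, 495, 369 and 328 CPM in healthy vehicle mice and 414, 359 and 501 CPM in healthy FGF23 mice. They were 220, 317, 141 and 246 CPM in anti-GBM vehicle mice and 301, 266 and 274 CPM in anti-GBM FGF23 mice. Every diseased mouse was thus below every healthy mouse, with the highest diseased value close to the lowest healthy one. Ace fell from 423 ± 73.4 to 252 ± 58.7 CPM (SD, n = 7 each), a log2 fold change of -0.73 (SE 0.16, edgeR adjusted p = 0.00145). Under vehicle alone the change was -0.87 (SE 0.20, adjusted p = 0.00433), and Ace was 1 of 4 members called beside 39.8% of genes. Under FGF23 alone it was -0.60 (SE 0.23) and not called (edgeR adjusted p = 0.0727), although the groups did not overlap. It was called there by DESeq2 (-0.59, adjusted p = 0.0448) and in an edgeR fit of only the groups compared (-0.57, adjusted p = 0.0129).

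Mme, the neprilysin that degrades angiotensin I and other peptides, was at 229, 239, 122 and 180 CPM in healthy vehicle mice and at 184, 181 and 251 CPM in healthy FGF23 mice. In anti-GBM mice it was at 83.5, 159, 128 and 122 CPM with vehicle and at 132, 165 and 161 CPM with FGF23. Most diseased mice were lower, but 1 healthy vehicle mouse lay among them. The log2 fold change was -0.54 (SE 0.16, edgeR adjusted p = 0.0134), and without the healthy FGF23 mouse with the highest level the call was lost at -0.41 (adjusted p = 0.0608). Enpep, which removes the N-terminal residue of angiotensin II, ranged from 163 to 211 CPM in healthy and from 108 to 205 CPM in anti-GBM mice. These ranges overlapped over most of their width, and the log2 fold change of -0.25 (SE 0.12) was not called (edgeR adjusted p = 0.111), though it was without the anti-GBM vehicle mouse with the highest Enpep level (-0.29, adjusted p = 0.0447).

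Agtr1a, the main angiotensin II receptor of the mouse kidney, was at 52.8, 55.4, 67.6 and 60.7 CPM in healthy vehicle mice and at 58.0, 56.1 and 52.4 CPM in healthy FGF23 mice. In anti-GBM mice it was at 58.3, 46.8, 46.5 and 44.1 CPM with vehicle and at 37, 40.4 and 50.5 CPM with FGF23. A single diseased mouse, which received vehicle, reached the healthy range. Agtr1a fell by 0.33 on the log2 scale (SE 0.09, edgeR adjusted p = 0.00625). Under FGF23 alone it was 1 of 2 members called beside 27.2% of genes (-0.38, SE 0.13, adjusted p = 0.0432), a call lost on leaving out any 1 of 5 of the 6 mice (adjusted p up to 0.184), all but the mouse numbered NTS16.

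Agt, the substrate of renin, was at 87.0, 67.1, 33.6 and 69.2 CPM in healthy vehicle mice and at 48.8, 68.0 and 87.0 CPM in healthy FGF23 mice. In anti-GBM mice it was at 51.7, 128, 106 and 126 CPM with vehicle and at 116, 100 and 110 CPM with FGF23. A single anti-GBM vehicle mouse lay within the healthy range and the other 6 diseased mice were above it. Agt rose from 65.8 ± 19.3 to 105 ± 25.8 CPM (SD, n = 7 each), a log2 fold change of 0.68 (SE 0.22, edgeR adjusted p = 0.0203). With p-values adjusted over 4 comparisons together, Agt was no longer called (adjusted p = 0.0723).

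Ren1 was at 50.3, 60.1, 134 and 119 CPM in healthy vehicle mice and at 77.8, 27.8 and 62.4 CPM in healthy FGF23 mice. In anti-GBM mice it was at 64.3, 86.6, 177 and 197 CPM with vehicle and at 78.2, 74.4 and 143 CPM with FGF23. Each of the 4 groups thus spanned a wide range and overlapped with the others. The log2 fold change was 0.67, as large as that of Agt, with an SE of 0.32 and an edgeR adjusted p of 0.0981. It passed the threshold with all mice and no count filter (0.71, adjusted p = 0.0377), and without the healthy mouse NTS3 (0.84, adjusted p = 0.05, just below the threshold) or the anti-GBM mouse NTS5 (0.82, adjusted p = 0.0370).

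Of the pair that sets the response to aldosterone, the receptor and its gatekeeper enzyme moved in opposite directions. Nr3c2 was at 24.2, 21.1, 22 and 22.9 CPM in healthy vehicle mice and at 23.4, 24.1 and 19.1 CPM in healthy FGF23 mice, against 18.8, 17.7, 18.4 and 13.7 CPM in anti-GBM vehicle mice and 17.5, 20.3 and 17.4 CPM in anti-GBM FGF23 mice. All diseased mice given vehicle were below all healthy mice given vehicle, whereas the FGF23 groups overlapped through 1 mouse of each. Nr3c2 fell by 0.33 on the log2 scale (SE 0.08, edgeR adjusted p = 0.00417). Hsd11b2 was at 157, 138, 191 and 166 CPM in healthy vehicle mice and at 151, 168 and 129 CPM in healthy FGF23 mice, against 257, 229, 172 and 218 CPM in anti-GBM vehicle mice and 178, 232 and 221 CPM in anti-GBM FGF23 mice. It rose by 0.46 on the log2 scale (SE 0.10, edgeR adjusted p = 0.00219), and the call held in each of the vehicle (0.43, adjusted p = 0.0216) and FGF23 (0.49, adjusted p = 0.0309) comparisons. In the latter, the call was lost without NTS9, NTS11, NTS14 or NTS16 (adjusted p up to 0.104).

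Nr3c2 and Ace were the 2 members whose vehicle groups did not overlap, beside 35.2% of genes. In the FGF23 groups, 5 members did not overlap (Agt and Hsd11b2 higher, Ace, Agtr1a and Mme lower), beside 45.4% of genes. None of the 8 had an anti-GBM effect that differed between FGF23 and vehicle in the test of the interaction (0 of 8, beside 0.0315% of genes), where the members' values lay between -0.11 and 0.29.

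Cell type markers moved with the disease. Of 9 proximal tubule markers, 7 fell (median log2 fold change of the list -0.54), and their summed level was 13040 to 16737 CPM in healthy vehicle, 12831 to 14868 in healthy FGF23, 9075 to 14071 in anti-GBM vehicle and 7380 to 9980 in anti-GBM FGF23 mice. All 6 macrophage markers rose (median 2.00), from a sum of 106 to 150 CPM in healthy mice to 249 to 391 CPM in anti-GBM mice. All 5 markers of tubular injury rose (median 6.05), as did 4 of 8 markers of vascular smooth muscle and mesangium, of which 1 fell. Of 6 endothelial markers, Kdr and Pecam1 fell and none rose (median -0.17), and their sum was 429 to 449 CPM in healthy vehicle, 393 to 450 in healthy FGF23, 322 to 436 in anti-GBM vehicle and 308 to 382 in anti-GBM FGF23 mice. Of 6 principal cell markers, 2 rose (Scnn1b and Scnn1g, also counted among the aldosterone targets below) and 1 fell (median 0.24). Their sum was 316 to 398 CPM in healthy vehicle, 336 to 687 in healthy FGF23, 375 to 623 in anti-GBM vehicle and 394 to 477 in anti-GBM FGF23 mice. The highest sum of principal cell markers was thus in a healthy mouse given FGF23. Of 4 thick ascending limb markers, 1 fell and none rose (median -0.20). Their sum was 3460 to 6251 CPM in healthy vehicle and 4093 to 5820 CPM in healthy FGF23 mice. In anti-GBM mice it was 1467 to 6274 CPM with vehicle and 4516 to 5445 CPM with FGF23, so an anti-GBM vehicle mouse was lowest. The part of these cell types in the members' changes was not tested. RNA was taken from a piece of the renal pars intermedia of each mouse. In such bulk tissue, fewer cells of a type, less RNA per cell and the zone sampled cannot be told apart.

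**Figure D2:**
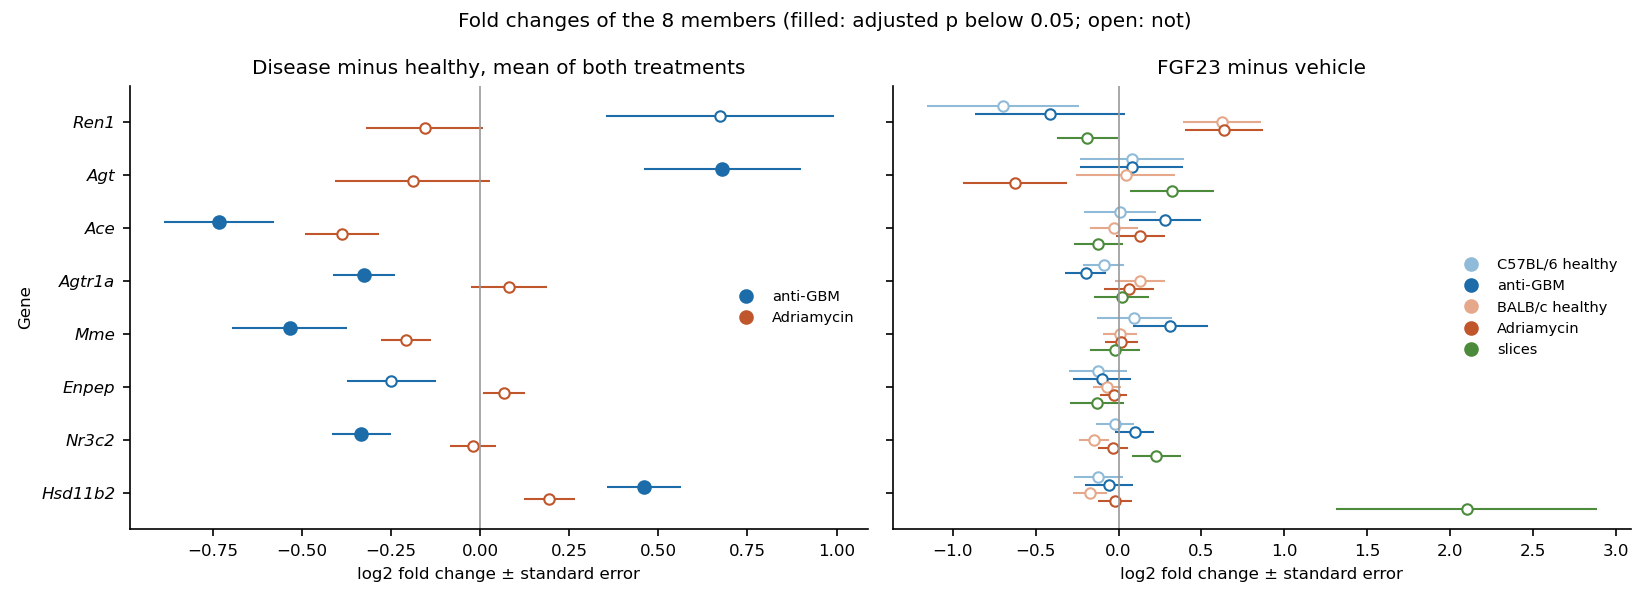
Log2 fold change of each member with its standard error, in disease against healthy mice averaged over treatments (left, 2 experiments) and in FGF23 against vehicle (right, 5 comparisons). Filled points passed an edgeR adjusted p of 0.05: 6 members in anti-GBM disease, none in Adriamycin nephropathy and none under FGF23.

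In Adriamycin nephropathy 0 of 8 members were called by edgeR, averaged over treatments, beside 1.94% of 16020 genes. At an unadjusted p below 0.05, 3 members differed (Ace, Mme and Hsd11b2), beside 15% of genes, and DESeq2 called Ace. Ace was at 425, 289, 341 and 316 CPM in healthy vehicle mice and at 313, 290, 332 and 408 CPM in healthy FGF23 mice, against 246, 311, 213 and 221 CPM in Adriamycin vehicle mice and 305, 265, 299 and 215 CPM in Adriamycin FGF23 mice. Diseased mice were on the low side of an overlapping range. The log2 fold change of -0.39 (SE 0.10) missed the threshold (edgeR adjusted p = 0.0671), and passed it with DESeq2 (adjusted p = 0.0109), without the count filter (adjusted p = 0.0262) or without the Adriamycin vehicle mouse with the highest Ace level (-0.45, adjusted p = 0.0218). Mme had a log2 fold change of -0.21 (SE 0.07, edgeR adjusted p = 0.161) and Hsd11b2 of 0.19 (SE 0.07, adjusted p = 0.198). These 3 estimates had the same sign as in anti-GBM disease. The other 5 were -0.16 for Ren1, -0.19 for Agt, 0.08 for Agtr1a, 0.07 for Enpep and -0.02 for Nr3c2. Of these 5, only Nr3c2 had its anti-GBM sign, and Ren1, Agt, Agtr1a and Enpep had the opposite one. Within treatments 0 of 8 members were called in each comparison, beside 0.331% of genes under vehicle and 0.699% under FGF23, and 0 of 8 in the interaction, beside 0% (5.11% unadjusted). None of the 13 marker lists had a called gene in this comparison except tubular injury, where Havcr1 fell.

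A single fit of the 30 mice tested whether the disease effects differed between the experiments. The effect in anti-GBM disease was lower than that in Adriamycin nephropathy for Agtr1a by 0.40 (SE 0.15, edgeR adjusted p = 0.0286) and for Nr3c2 by 0.31 on the log2 scale (SE 0.11, adjusted p = 0.0203), 2 of 8 members beside 41.6% of 16954 genes. For Ace the difference was -0.34 (SE 0.19, adjusted p = 0.160), for Agt 0.87 (SE 0.36, adjusted p = 0.0564) and for Ren1 0.83 (SE 0.37, adjusted p = 0.0725), none of them called. Disease model, strain and sex differ together between the experiments and cannot be told apart, and time after induction was not compared.

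FGF23 was then compared with vehicle in healthy and in diseased mice. No member was called in any of 5 comparisons: 0 of 8 beside 0% of genes in healthy C57BL/6 mice (4.34% of genes at an unadjusted p below 0.05), 0.24% in anti-GBM mice, 0% in healthy BALB/c mice (6.69% unadjusted), 0.0375% in Adriamycin mice and 0% in the slices (4.89% unadjusted). Outside Ren1, the members' log2 fold changes in mice lay between -0.62 and 0.31. Agt of Adriamycin mice gave the lowest of these (-0.62, SE 0.31, edgeR adjusted p = 0.885), at 0.772 to 1.61 CPM with FGF23 and 0.894 to 2.2 CPM with vehicle.

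Ren1 had the largest FGF23 estimates in both strains, with opposite signs. In healthy BALB/c mice it was at 92.7, 117, 156 and 135 CPM with vehicle and at 226, 142, 247 and 157 CPM with FGF23. In Adriamycin mice it was at 107, 80.6, 102 and 157 CPM with vehicle and at 112, 184, 182 and 218 CPM with FGF23. Most FGF23 mice were thus above the vehicle mice of their state, and the groups overlapped through 1 or a few mice. The log2 fold change was 0.62 in healthy mice (SE 0.23, edgeR adjusted p = 0.688) and 0.64 in Adriamycin mice (SE 0.23, edgeR adjusted p = 0.825). Averaged over both states it was 0.63 (SE 0.17, edgeR adjusted p = 0.463). In each of these 3 comparisons Ren1 was below 0.05 before adjustment and not after it, and in the average edgeR called 0 of 16020 genes, 6.84% of which were below 0.05 before adjustment. In C57BL/6 mice the values given above correspond to -0.70 in healthy mice (SE 0.46) and -0.41 in anti-GBM mice (SE 0.45), an average of -0.56 (SE 0.32, edgeR adjusted p = 0.663, with 0 of 15859 genes called and 7.76% below 0.05 before adjustment). The FGF23 effect on Ren1 differed between the experiments by -1.17 (SE 0.37, edgeR adjusted p = 0.322). It was below 0.05 before adjustment only, as were 10.4% of 16954 genes, of which 0 passed the adjustment. The FGF23 doses, times, strain and sex of the experiments differ. The early proximal tubule marker Slc5a2 correlated with Ren1 within groups of BALB/c mice (r 0.706, rho 0.703, permutation, adjusted p = 0.0282 and 0.0465) but not detectably in C57BL/6 mice (r -0.15, rho -0.055, permutation, adjusted p = 0.805 and 0.888). Slc5a2 had estimates of 0.05 under FGF23 in BALB/c and -0.35 in C57BL/6 mice.

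In the slices Hsd11b2 had the largest FGF23 estimate of the members, and 1 slice carried it. Vehicle slices were at 11.7, 5.10, 11.2 and 5.07 CPM and FGF23 slices at 108, 9.22, 16.7 and 7.88 CPM, in order of slice number. FGF23 slice 1 lay far above the vehicle slices, slice 3 somewhat above them, and slices 2 and 4 within their range. Each FGF23 slice was above the vehicle slice of its own number, although the numbers were not taken to pair the slices. The log2 fold change of 2.10 (SE 0.79, edgeR adjusted p = 0.849) became 0.46 without that slice (adjusted p = 0.942). The same slice was the highest of 8 in all 6 principal cell markers. Aqp2, the vasopressin-regulated water channel of the collecting duct, was at 247 CPM there and at 5.80 to 44.1 CPM in the other 7, and the summed principal cell level was 438 CPM against 42.6 to 132 CPM. By slice number, that sum was 89.5, 42.6, 106 and 56.9 CPM with vehicle and 438, 79.4, 132 and 80.6 CPM with FGF23, so that it too was higher in the FGF23 slice of each number. Proximal tubule markers also summed highest there, at 803 CPM, and Agt was at 23 CPM against 8.55 to 13.2 CPM in the other 7 slices. The part of collecting duct content in the Hsd11b2 estimate was not tested beyond leaving out the slice. The other 7 members had log2 fold changes between -0.19 and 0.32 in the slices. The slices of a group are described as biologically independent, and whether a vehicle and an FGF23 slice came from the same animal is not given in the sources used here.

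**Figure D3:**
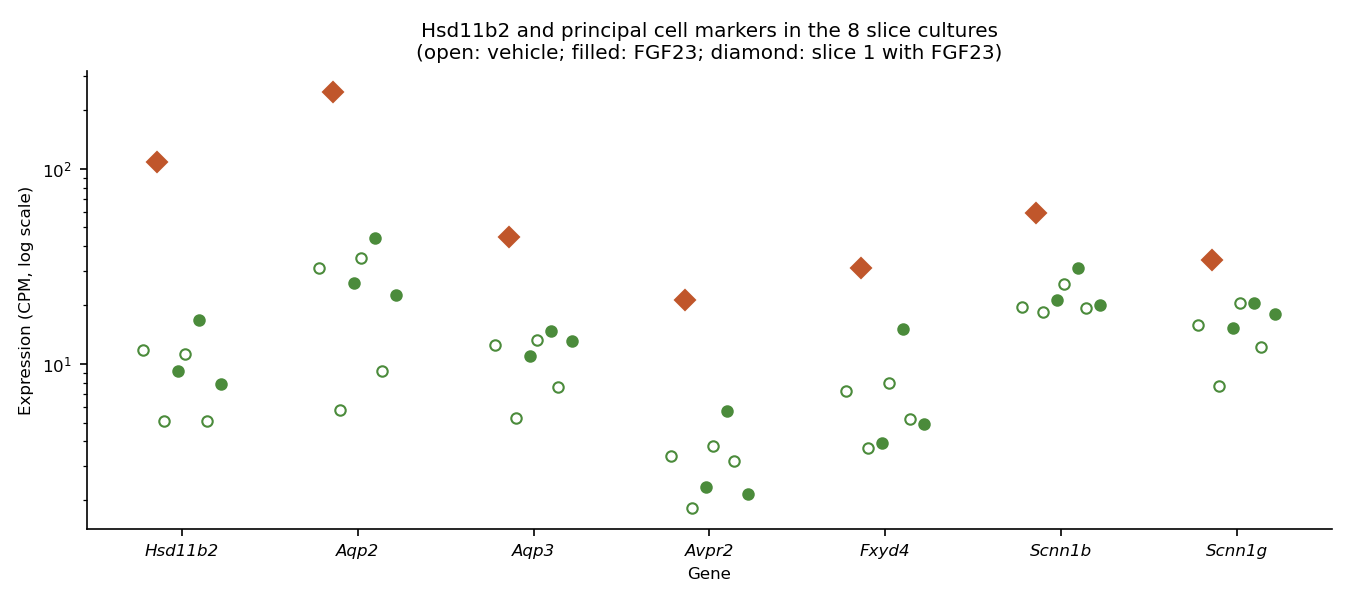
Hsd11b2 and 6 principal cell markers in each of the 8 slices, in CPM on a log10 axis. FGF23 slice 1 is highest for Hsd11b2 (108 CPM) and for every marker, and the other 3 FGF23 slices lie close to the 4 vehicle slices.

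Beyond group differences, members varied together from mouse to mouse. Each mouse's log2 CPM was taken as a deviation from the mean of its own group, and all 28 pairs of members were correlated in each experiment, 56 tests in all with permutation within groups, of which 7 had an adjusted p of Pearson's r below 0.05. The pair found in both experiments was Agtr1a and Enpep. Its r was 0.864 over the 14 mice of the anti-GBM experiment (permutation p = 0.00155, adjusted p = 0.0337) with a Spearman's rho of 0.952 (p = 0.000360, adjusted p = 0.0202), and r remained 0.852 without the 2 mice farthest from the median. Over the 16 mice of the Adriamycin experiment r was 0.822 (permutation p = 0.00408, adjusted p = 0.0381) and rho was 0.735 (p = 0.0103, adjusted p = 0.0823), and r was 0.632 without the 2 farthest mice. The enzyme that clears angiotensin II and its receptor were thus high in the same mice.

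Ace varied with Mme and against Enpep in BALB/c mice. The r of Ace and Mme was 0.792 over 16 mice (permutation p = 0.000850, adjusted p = 0.0337), rho was 0.703 (p = 0.00468, adjusted p = 0.0795) and r was 0.762 without the 2 farthest mice. For Ace and Enpep r was -0.755 (permutation p = 0.00201, adjusted p = 0.0337), rho was -0.706 (p = 0.00615, adjusted p = 0.0795) and r was -0.784 without the 2 farthest. In the 14 C57BL/6 mice these r were 0.452 (permutation p = 0.216, adjusted p = 0.472) and -0.301 (p = 0.517, adjusted p = 0.743), with rho of 0.538 (p = 0.106, adjusted p = 0.273) and -0.437 (p = 0.164, adjusted p = 0.353). The other adjusted p below 0.05 were for Ren1 with Agtr1a (r 0.755) and Ace with Agtr1a (r -0.723) in BALB/c and Agt with Agtr1a (r -0.747) in C57BL/6 mice. None of these 3 passed the adjustment by rho or in the other experiment.

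The members also followed markers of the proximal tubule segments, tested with 32 correlations, of which 9 had an adjusted p of Pearson's r below 0.05. Slc5a2, the glucose transporter of the early segments, correlated with Agtr1a at r = 0.877 and 0.722 in C57BL/6 and BALB/c mice (permutation, adjusted p = 0.0154 in each) and with Enpep at r = 0.863 (permutation, adjusted p = 0.0255) and 0.836 (adjusted p = 0.00928). The corresponding rho were 0.908, 0.700, 0.899 and 0.785. Slc7a13, an amino acid transporter of the last segment, correlated with Ace at r = 0.840 in C57BL/6 mice (permutation, adjusted p = 0.0282, rho 0.758) and with Mme at r = 0.690 in BALB/c mice (adjusted p = 0.0282, rho 0.671, adjusted p of rho 0.0628). In the other experiment Slc7a13 and Ace had an r of 0.576 (permutation, adjusted p = 0.103), and Slc7a13 and Mme had an r of 0.456 (adjusted p = 0.288). The receptor and Enpep thus varied with the early segment marker in both experiments, and Ace and Mme with the late one, by Pearson's r, in 1 experiment each. Slc5a2 also correlated with Hsd11b2, a gene of the collecting duct, in C57BL/6 mice (r 0.798, rho 0.763, permutation, adjusted p = 0.0282 and 0.0465), where BALB/c mice had an r of -0.066 (adjusted p = 0.907). It ran against Ace in BALB/c mice by r only (r -0.68, permutation, adjusted p = 0.0318, rho -0.50, adjusted p = 0.175), and the remaining one of the 9 was that with Ren1 given above. Slc7a13 fell in anti-GBM disease by 1.30 on the log2 scale (SE 0.23, edgeR adjusted p = 0.000393) and was at -0.73 in Adriamycin nephropathy (SE 0.27, adjusted p = 0.201). The part of segment content of the sampled tissue in the changes of Ace and Mme was not tested.

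**Figure D4:**
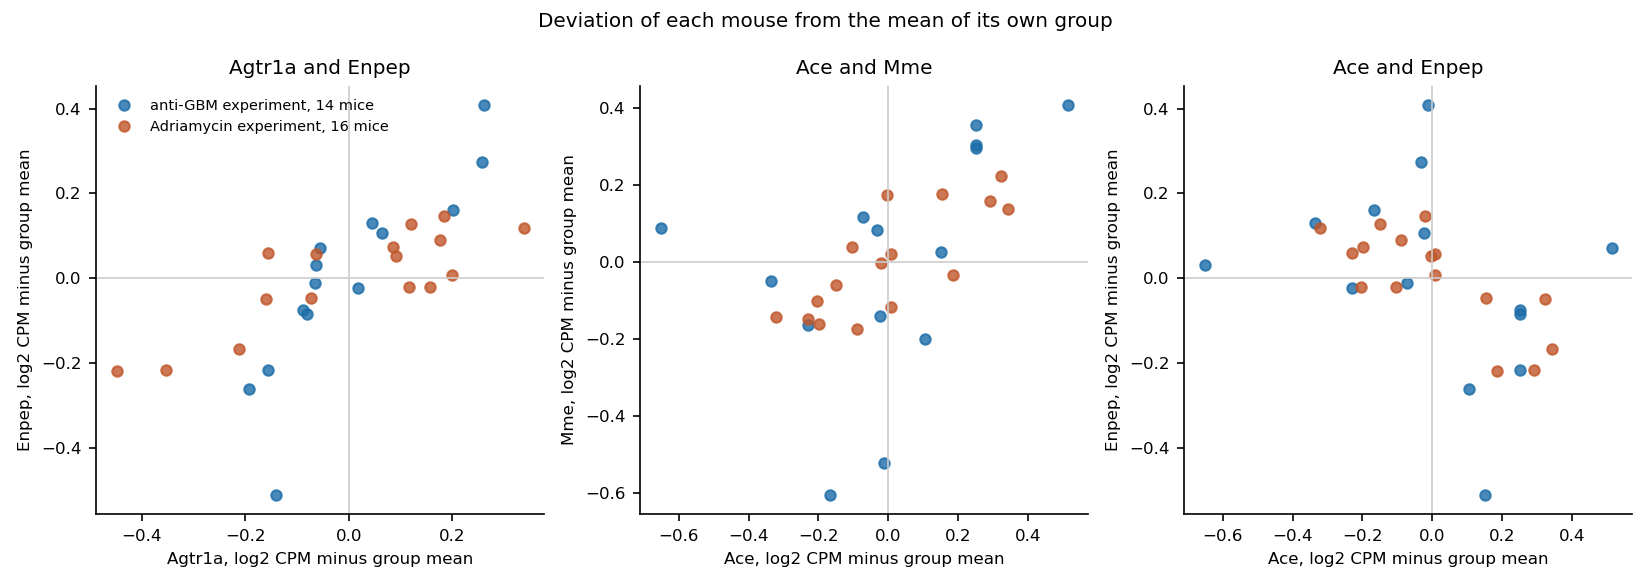
Deviation of each mouse from the mean of its own group, in log2 CPM, for 3 pairs of members, with 14 mice of the anti-GBM and 16 of the Adriamycin experiment. Agtr1a and Enpep rise together in both (r 0.864 and 0.822), Ace and Mme more clearly in BALB/c mice (r 0.792), and Ace and Enpep run opposite there (r -0.755).

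The other genes of the pathway were followed as 5 lists of 69 genes. Of 19 further peptidases, receptors and receptor partners, 13 were tested in anti-GBM disease, of which 4 rose and 3 fell, 7 of 13 beside 48.3% of all genes tested. Mas1, the receptor of angiotensin-(1-7), had the largest change (-1.93, SE 0.21, edgeR adjusted p = 7.03e-06). Lnpep, the angiotensin IV binding aminopeptidase (-0.39, adjusted p = 0.00478), and Anpep, aminopeptidase N (-0.31, adjusted p = 0.0136), also fell. The lysosomal protease Ctsd, which can act on angiotensinogen, rose by 0.62 on the log2 scale (edgeR adjusted p = 0.000108), and Thop1, Ctsa and Prcp rose by 0.30 or less. The prorenin receptor Atp6ap2 (-0.04, adjusted p = 0.614) and the receptor partner Agtrap (-0.11, adjusted p = 0.0739) were not called. Of 3 kinin genes tested, Kng1, the kininogen (1.77, edgeR adjusted p = 0.000578), and the bradykinin receptor Bdkrb2 (1.74, adjusted p = 5.41e-05) rose.

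Of 18 genes of renin release and the juxtaglomerular apparatus, 3 rose in anti-GBM disease and none fell: Ptgs2, the cyclooxygenase that macula densa cells use to stimulate renin (2.18, SE 0.46, edgeR adjusted p = 0.00147), the prostaglandin receptor Ptger4 (1.09, adjusted p = 3.12e-05) and the phosphodiesterase Pde3b (0.42, adjusted p = 0.0361). These 3 of 18 are a smaller share than the 48.3% of all genes called in this comparison. Of 21 aldosterone targets and receptor partners, 9 rose and 4 fell, 13 of 21 beside the same 48.3%. Sgk1, the kinase through which aldosterone raises sodium channel activity, rose by 1.89 on the log2 scale (SE 0.26, edgeR adjusted p = 4.14e-05). The sodium channel subunits Scnn1a (0.41, adjusted p = 0.00458), Scnn1b (0.52, adjusted p = 0.00130) and Scnn1g (0.53, adjusted p = 0.00130) rose with Hsd11b2, while Nr3c2 fell. Tsc22d3 (1.37) and Fkbp5 (1.44), which also respond to glucocorticoids, rose, and the ubiquitin ligase subunit Cul3 fell by 0.42 on the log2 scale (edgeR adjusted p = 6.41e-05). The part of aldosterone or of glucocorticoids in the rise of any gene of this list, Sgk1 and the channel subunits included, was not tested. Only Star was tested among the 7 adrenal steroid genes, and it was not called.

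**Figure D5:**
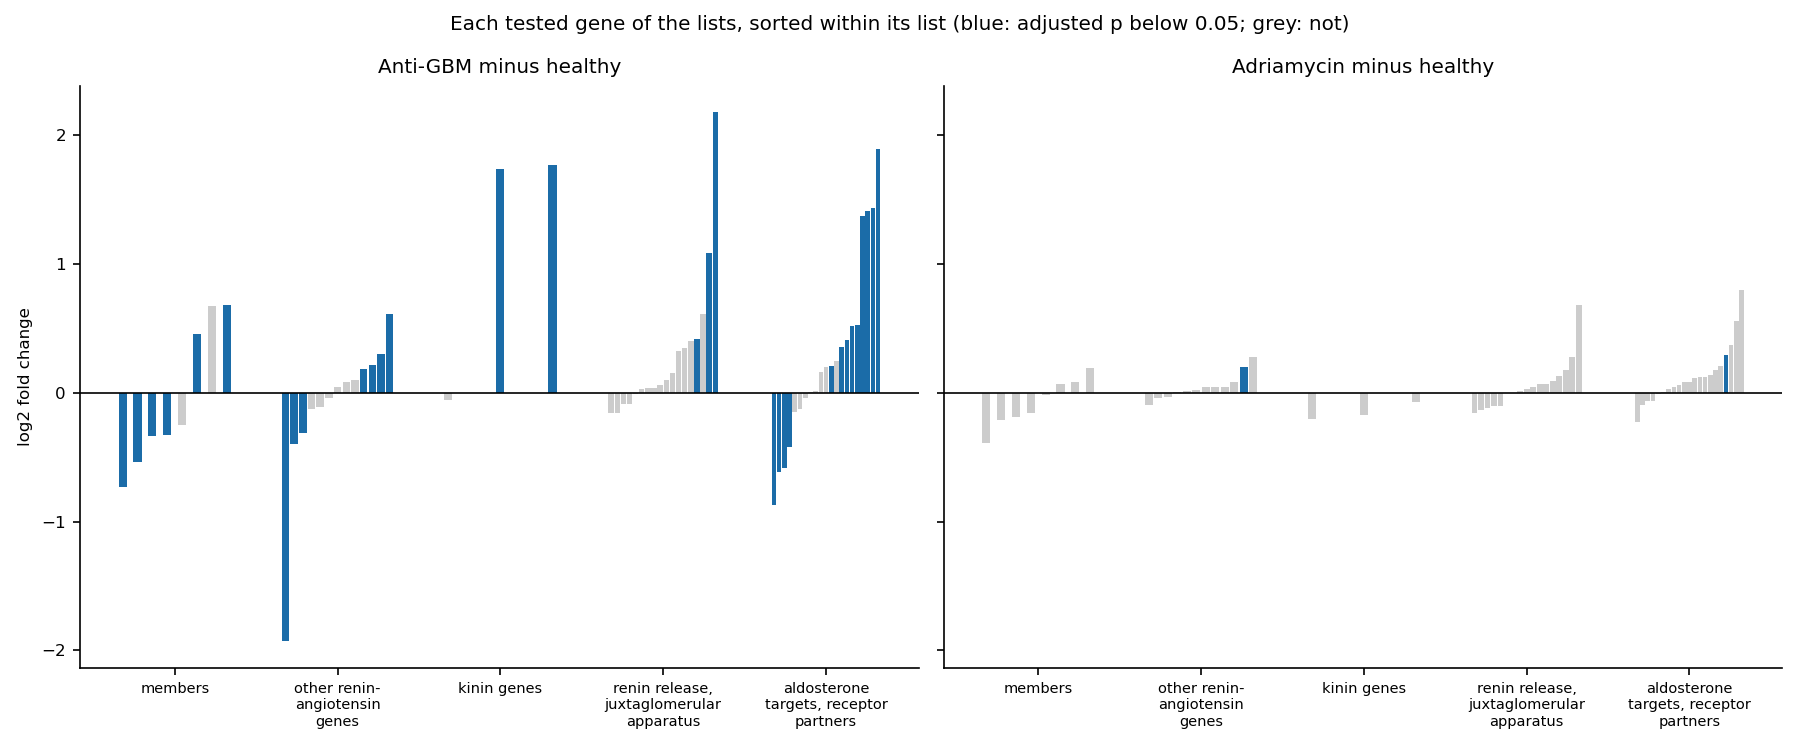
Log2 fold change of each tested gene of the members and of 4 further lists, sorted within the list, in anti-GBM disease (left) and Adriamycin nephropathy (right), averaged over treatments. Blue bars passed an edgeR adjusted p of 0.05: 6 of 8 members, 7 of 13 other genes of the system, 2 of 3 kinin genes, 3 of 18 renin release genes and 13 of 21 aldosterone genes on the left, and 2 bars on the right.

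In Adriamycin nephropathy, averaged over treatments, the peptidase Prep (0.20, edgeR adjusted p = 0.000938) and the deubiquitinase Usp2 (0.29, adjusted p = 0.00362) rose and no other list gene was called. The estimate of Sgk1 was 0.56 (SE 0.16, edgeR adjusted p = 0.0880) and those of Scnn1a, Scnn1b and Scnn1g were 0.06, 0.11 and 0.05. Among mice given FGF23, Sgk1 was at 301, 377, 451 and 166 CPM in Adriamycin and at 151, 113, 163 and 149 CPM in healthy mice, so that 3 of 4 diseased mice were far above the healthy ones and 1 just above. This difference was called (1.17, SE 0.23, edgeR adjusted p = 0.0267), as were those of Usp2 (0.45, adjusted p = 0.00450), Per1 (0.45, adjusted p = 0.0179) and Prep (0.20, adjusted p = 0.0267), beside 0.699% of genes. Among mice given vehicle the estimate of Sgk1 was -0.05 (SE 0.23, edgeR adjusted p = 0.983), Prep was the only list gene called beside 0.331% of genes, and the interaction for Sgk1 was 1.22 (SE 0.32, edgeR adjusted p = 0.668) and not called. No list gene was called in any FGF23 comparison. Mean Sgk1 was 163 CPM with vehicle and 324 CPM with FGF23 in Adriamycin mice. In anti-GBM mice the order was opposite, at 338 CPM with vehicle and 159 CPM with FGF23.

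Genes whose log2 CPM ran most like that of each member were ranked over 15240 genes by the lower of the correlations over the 14 and the 16 mice. Ace was followed most closely by Atp11a (0.954), Cers5 (0.924) and Nceh1 (0.905), and Mme by Ghr (0.913), Cyp51 (0.896) and Wasf3 (0.863). Agtr1a was followed by Igfbp3 (0.867), Trabd2b and Acmsd, and Enpep by Mfsd1 (0.867), Car12 and Trabd2b, so that Trabd2b stood in both sets. This depended on the measure: ranked by Spearman's correlation, Kdr was first for both members, Trabd2b was 16th for Agtr1a and 17th for Enpep, and 1 of the 3 genes of Agtr1a and 0 of the 3 of Enpep stayed among the first 3. For the remaining members the best values were lower: Spns2 for Hsd11b2 (0.782), Prr5 for Ren1 (0.733), St3gal4 for Agt (0.718) and Vmac for Nr3c2 (0.698). The sets of Mme, Ren1, Agt and Nr3c2 depended on the measure as well, with 1 of 3 genes each still among the first 3 by Spearman. These are descriptions over mice that share groups and library preparation.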

How the data were processed

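Bulk RNA-Seq of 38 libraries was analysed: 14 mice of the anti-GBM, 16 of the Adriamycin and 8 slices of the adenine experiment. The authors deposited raw counts per gene, made with STAR 2.7.9a, featureCounts 1.5.1, GRCm38 and Ensembl 102 per the labels and the submitters' processing notes. A stranded kit was used, but the strand setting of counting is not given in the sources used here, and Ace, Agtr1a, Enpep and Nr3c2 overlap other annotated genes. Libraries were grouped by the labels and the table's header, in which the column of mouse NTS14 is named NTS4, and the study's legend gives other group sizes for the anti-GBM experiment. The slice time is 1 h in the labels and 24 h in the study's text.

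Counts were fitted in R 4.3.3 with edgeR 4.0.16 (TMM, filterByExpr with a minimum count of 10, quasi-likelihood test, 1 fit per experiment). P-values were adjusted by Benjamini-Hochberg over all genes within a comparison and called below 0.05, on log2 fold changes. CPM were computed with the same scaling, and log2 CPM with a prior count of 2. DESeq2 1.42.0 and other settings served as alternatives. FGF23 averaged over disease states and the differences between experiments were added after seeing the data. The correlations between members, and of members with Slc5a2 and Slc7a13, were not in the planned design either. Correlations were tested by 100000 permutations within groups. On simulated data the fit recovered 73 of 100 genes shifted by 1 log2 unit between the vehicle groups of the anti-GBM experiment (15859 genes), 77 in those of the Adriamycin experiment (16020 genes) and 81 in the slices (15090 genes).

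The members, lists and markers were chosen with earlier results of these data known. Named beside the 8 members were Anpep, Atp6ap2, Agtrap, Sgk1, Scnn1a, Scnn1b and Scnn1g, the 4 called genes of each list with the smallest p in a comparison, and for each member the 3 genes most like it. Thop1, Ctsa, Prcp, Ptger4, Ptgs2, Tsc22d3, Star, Havcr1 and the markers Slc5a2, Slc7a13, Aqp2, Kdr, Pecam1 and those of the adrenal cortex were named beyond or beside that rule. Column names, not a row of letter codes that goes against them, gave the slices' treatment. No 2 replicates agreed within sampling noise. A planned result is not reported here.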

Additional observations from a re-analysis of the deposited data

Results flagged for a closer look

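Each group of 4 was searched for a mouse or slice far from the other 3 (Dixon's test), a search over 64 combinations of member and group in which chance flags about 1 in 20. It found 5. In FGF23 slice 1, Agt was at 23 CPM against 10.5 to 11.3 CPM in the other FGF23 slices, the slice that was also highest in Hsd11b2 and principal cell markers. In FGF23 slice 3, Mme was at 74.8 CPM against 115.5 to 122 CPM. The healthy FGF23 BALB/c mouse Ad12 was low in both Agtr1a (37.1 CPM against 50.3 to 53.5) and Enpep (153 CPM against 185 to 189), the pair that varied together across mice. In the Adriamycin FGF23 mouse Ad13, Nr3c2 was at 25 CPM against 33 to 33.7 CPM.

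The effect of disease differed between the anti-GBM and Adriamycin experiments for 2 members in the test of the difference itself. It was -0.40 on the log2 scale for Agtr1a (edgeR adjusted p = 0.0286) and -0.31 for Nr3c2 (edgeR adjusted p = 0.0203), anti-GBM minus Adriamycin.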

How the results depend on the processing

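Of 1024 values with 1 library left out, 1001 kept their side of the threshold, 16 lost and 7 gained a call, and of 760 values under other settings 736, 17 and 7 did. Among those that kept their side, 93 and 3 values changed sign, none of them called. Most of the 1024 and 760 values belonged to results that were not called at first and so had no call to lose. Calls were far less stable in the FGF23 groups. There, anti-GBM disease lost its Agtr1a call in 5 of 6 fits with 1 library left out, and its Hsd11b2 call in 4 of 6. With an absolute log2 fold change above 1 also required, 0 members were called in anti-GBM disease averaged over treatments, under vehicle and under FGF23. Under FGF23, 1 member was called in place of 2 without a count filter or with at least 10 counts in every library, 0 to 1 with 1 library left out, and 3 by DESeq2, which added Ace, or in a fit of only the groups compared, which added Agt (edgeR adjusted p = 0.0247) and Ace and lost Agtr1a (0.0519). In Adriamycin nephropathy 1 member (Ace) was called in place of 0 by DESeq2 and without a count filter, and 0 to 1 with 1 library left out. Under vehicle, Mme lost its anti-GBM call without NTS1, NTS2, NTS4, NTS5 or NTS8 (edgeR adjusted p up to 0.113) and Nr3c2 without NTS1 (0.0591), while Agt gained one without NTS1 (0.0383) or NTS5 (0.00903) and Agtr1a without NTS5 (0.0279). Under vehicle, Agt was also called without a count filter (0.0286), and Mme was not in a fit of only the groups compared (0.0583). The share of all genes called under each alternative of this section is not given here, so these counts describe the members only. The causes were not tested.

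Only the columns of the slices carry replicate numbers. With the replicate block, 0 members were called and Hsd11b2 was at 1.39 (edgeR adjusted p = 0.757). Same-numbered slices correlated at 0.107, 0.105, -0.105 and 0.112, and slices of different numbers at -0.161 to 0.124. With 4 slices per group these values cannot decide whether the numbers pair the slices. The numbers were not taken to pair them. Groups of 3 or 4 limit what could be detected. The fit of simulated counts recovered 73 of 100 genes shifted by 1 log2 unit between the vehicle groups of 4 in the anti-GBM experiment. Comparisons of groups of 3 and shifts below 1 log2 unit were not simulated. Agt had as few as 12 counts in a BALB/c library.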
